A study of Mus musculus with 24 samples.

Results

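Antioxidant and glutathione defence was described with 9 genes in cultured primary mouse osteoblasts (OBs): Gclc, Gclm and Gsr for glutathione, Txnrd1, Prdx1 and Srxn1 for the thioredoxin and peroxiredoxin system, Hmox1 and Nqo1 for haem and quinones, and Sod2 for mitochondrial superoxide. They were taken by symbol from the count files, and all 9 were found, with 1 entry each, among 55335 genes. Polyadenylated RNA was sequenced from parietal bone OBs under osteogenic differentiation 8, 14 and 21 days after the cells were seeded. WT cultures and cultures heterozygous for the G610C substitution in the triple helix of the proα2(I) collagen chain (Het) had 4 libraries each per day, 24 in all. Donors of both genotypes were pups in their first week of life, maintained on the C57BL/6J background. Cells of several pups of 1 genotype were pooled before plating, so the spread between libraries does not hold the spread between animals. The study describes a pair of experiments with different litters, plating densities and oxygen levels during expansion, and the labels number the libraries 1 to 4 without naming the experiment. A point mutation does not show in a gene's count, so the counts cannot check the genotype labels.

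Cells keep reactive oxygen low by linked systems. Glutathione is made from cysteine, glutamate and glycine. Its first step is catalysed by glutamate-cysteine ligase, whose catalytic subunit is encoded by Gclc and modifier subunit by Gclm, and Gsr encodes the reductase that returns oxidised glutathione to its reduced form with NADPH. Prdx1 encodes a cytosolic peroxidase that is reduced by thioredoxin, Txnrd1 the cytosolic reductase of thioredoxin, and Srxn1 the sulfiredoxin that rescues overoxidised peroxiredoxins. Hmox1 encodes the inducible haem oxygenase, Nqo1 a quinone reductase, and Sod2 the superoxide dismutase of mitochondria. Most of these genes are classical targets of NRF2, encoded by Nfe2l2, which is held down by KEAP1 and binds antioxidant response elements when electrophiles or oxidants release it.

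Libraries held 17140202 to 59734231 counts, and all 6 libraries numbered 1 were among the smaller, at 17140202 to 25825762 against 28159342 to 59734231 in the other 18. Values are given as relative quantity (RQ): each count was scaled, library by library, to the geometric mean of 4 housekeeping genes (Sdha, Mrfap1, Actb and Actg1). All 4 OB markers (Col1a1, Runx2, Sp7 and Ibsp) were present in every group, with a summed RQ of 17.2 to 47.5 at day 8 that was 93.5 to 183 at days 14 and 21. Markers of macrophages and osteoclasts (9 genes, none at 0) rose in sum from 0.721 to 1.40 at day 8 to 2.25 to 17.6 at the later days. The libraries numbered 1 stood apart for the 9 defence genes too: at day 8 both of them lay above the other 6 for 7 of the 9, and this held for 40.9% of the 18222 genes tested.

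Promoter sequences from RefSeq (GRCm38.p6, 250 bases before to 50 after a start) were at hand for 6 of the 9 genes, in 8 promoters, and not for Hmox1, Gclc and Gsr. They were searched on both strands for the antioxidant response element TGACNNNGC, the AP-1 element TGACTCA and the C/EBP-ATF element TGATGNAA, because several of the genes moved together. The first had a match in 4 of the 8 promoters (of Gclm, Txnrd1, Srxn1 and Prdx1), against 12.4% of all 32851 promoters of the table. The AP-1 letters matched in 2 of the 8 (of Srxn1 and Prdx1), against 5.2%, and the C/EBP-ATF letters in none of the 8, against 3.97%. Promoters with a match are shown 5′ to 3′ in the direction of the gene, up to the first annotated exon base, with matches in capitals. The stretches are chr3:122245307-122245556 for Gclm, chr4:116685349-116685543 for Prdx1, chr10:82858956-82859178 for Txnrd1 and chr2:152105274-152105515 for Srxn1, all on the plus strand.
Gclm: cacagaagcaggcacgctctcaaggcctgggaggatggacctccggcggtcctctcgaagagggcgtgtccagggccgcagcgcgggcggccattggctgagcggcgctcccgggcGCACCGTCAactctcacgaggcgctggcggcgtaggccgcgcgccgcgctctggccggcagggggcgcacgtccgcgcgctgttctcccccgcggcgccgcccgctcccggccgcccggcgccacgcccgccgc
Prdx1: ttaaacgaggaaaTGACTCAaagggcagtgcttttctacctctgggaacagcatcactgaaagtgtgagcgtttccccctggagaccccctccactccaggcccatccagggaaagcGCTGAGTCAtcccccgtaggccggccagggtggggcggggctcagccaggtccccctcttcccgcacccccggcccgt
Txnrd1: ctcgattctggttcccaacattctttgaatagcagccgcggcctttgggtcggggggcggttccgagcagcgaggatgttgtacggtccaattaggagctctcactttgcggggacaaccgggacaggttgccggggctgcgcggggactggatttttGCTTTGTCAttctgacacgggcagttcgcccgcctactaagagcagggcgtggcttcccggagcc
Srxn1: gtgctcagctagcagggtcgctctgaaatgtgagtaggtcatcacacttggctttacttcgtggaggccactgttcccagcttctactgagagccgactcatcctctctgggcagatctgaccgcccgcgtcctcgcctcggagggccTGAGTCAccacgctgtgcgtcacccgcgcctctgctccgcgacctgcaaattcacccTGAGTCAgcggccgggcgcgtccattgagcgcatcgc
The capitals in Gclm and Txnrd1 are antioxidant response elements on the opposite strand, beginning 134 and 92 bases before the start. In Prdx1 the first run is an AP-1 match and the second is an antioxidant response element on the opposite strand that also holds an AP-1 match. Both runs in Srxn1 are AP-1 matches on the opposite strand, and its antioxidant response element begins at or after the start and is not printed. Nqo1, Sod2 and the other two Txnrd1 promoters had no match in these windows. A match is a string of letters and not a measured binding site.

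Per kilobase of exon, Prdx1 was the most abundant of the 9, at an RQ of 0.298 ± 0.066 per kb (SD, n = 24), followed by Hmox1 at 0.182 ± 0.056. Nqo1 (0.0489 ± 0.031 per kb) and Srxn1 (0.0418) followed at a lower level and did not differ beyond their spread. Txnrd1 stood at 0.0286 per kb, and Gsr (0.0143), Gclc (0.0125), Gclm (0.0104) and Sod2 (0.00831) formed the low end, with neighbours closer than their spread.

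**Figure D1:**
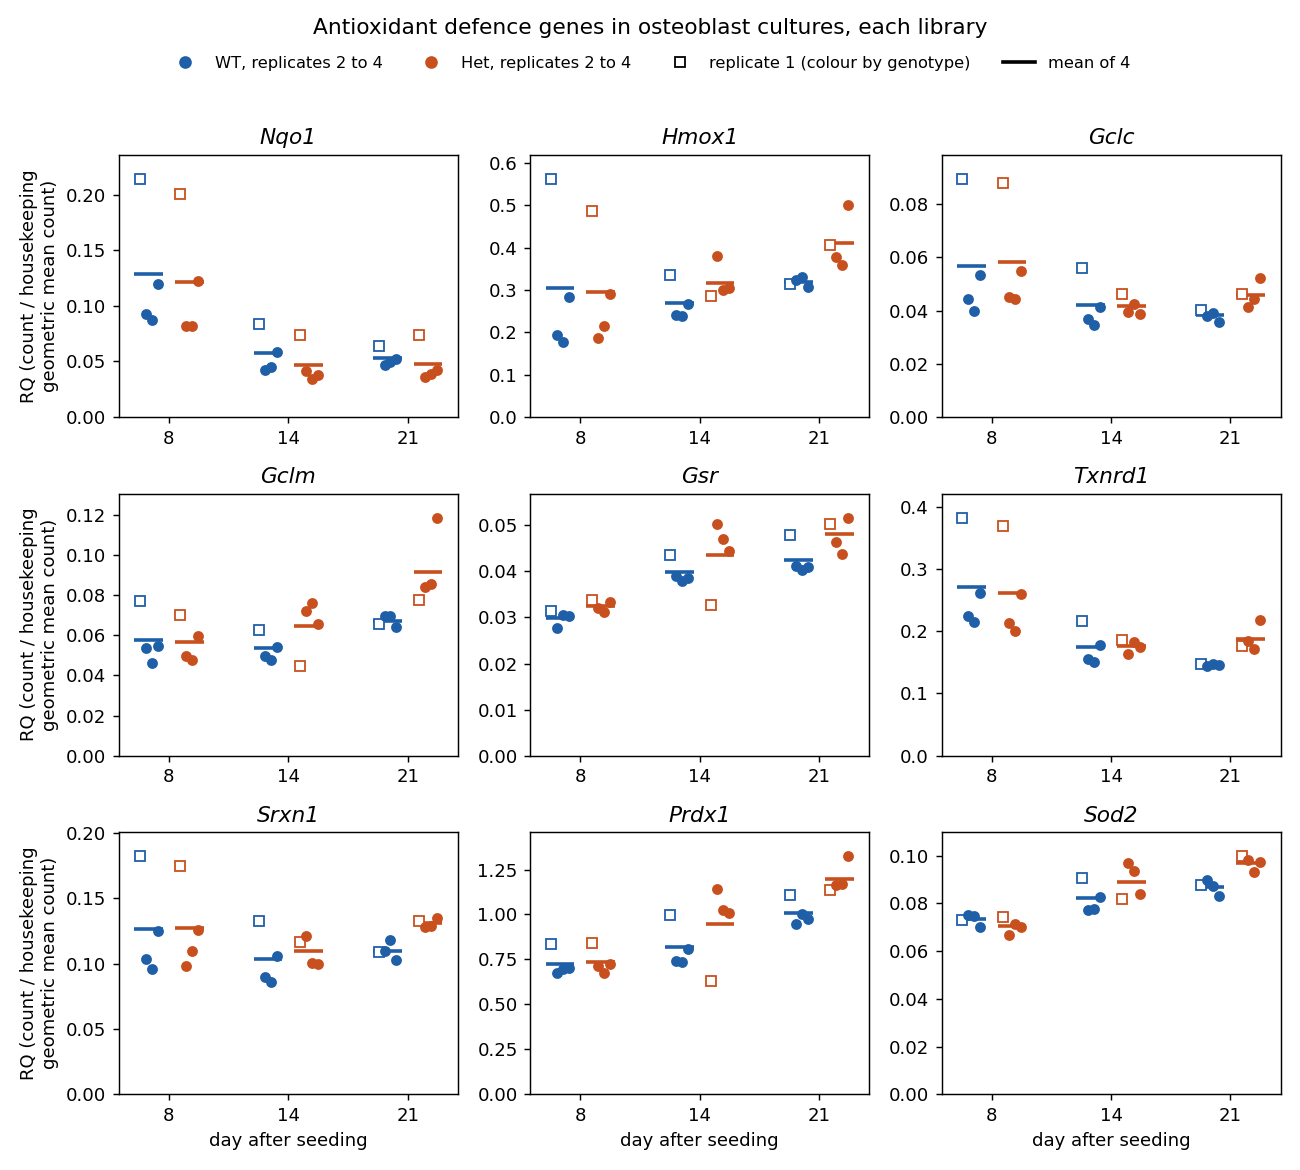
RQ of each of the 9 genes (vertical axis, from 0) by day after seeding (horizontal axis) in every library; blue points are WT, orange points Het, open squares the libraries numbered 1, and bars the mean of 4. Nqo1 falls after day 8, the open squares are high at day 8 for most genes, and at day 21 the orange points lie above the blue ones for 7 genes.

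Whether Het OBs differ from WT in these genes was asked at days 14 and 21 together, as the study does for its own markers. In Het, Gclm was 1.29-fold and Hmox1 1.24-fold the WT mean, and Sod2 1.1-fold, and these 3 of the 9 were higher by edgeR's quasi-likelihood test with Benjamini-Hochberg adjustment over all genes. None was lower. Of 19839 genes, 16.1% were called in either direction and 7.26% higher. Gclc, Gsr, Txnrd1, Srxn1 and Prdx1 also had Het means above WT, at ratios of 1.09 (Gclc) to 1.18 (Prdx1), without passing the test, and Nqo1 had a Het mean of 0.857 of WT. The median log2 difference of the 9 was 0.17 against −0.05 over all genes tested. The log2 differences, with standard errors and adjusted p from edgeR's fit across all genes, were 0.37 ± 0.11 (adjusted p = 0.03) for Gclm, 0.30 ± 0.09 (adjusted p = 0.0299) for Hmox1 and 0.14 ± 0.05 (adjusted p = 0.0484) for Sod2.

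Gclm (chromosome 3, 122245557 to 122270732 of mm10, plus strand) encodes the subunit that sets the efficiency of glutathione synthesis. At day 14 its RQ was 0.0626, 0.0495, 0.0476 and 0.0544 in the WT libraries 1 to 4 and 0.0447, 0.0723, 0.0762 and 0.0656 in the Het libraries. At day 21 it was 0.0654, 0.0699, 0.0694 and 0.0644 in WT cultures and 0.0776, 0.0842, 0.0855 and 0.119 in Het cultures. The genotypes did not overlap at day 21, and at day 14 the only Het library not above every WT library was replicate 1, which was the lowest of all 8. Part of the exon bases of Gclm is shared with 2 predicted genes, Gm17494 on the opposite strand and Gm6061 on the same one, and the strand rule of the counting is not given in the sources used here, so reads there cannot be assigned with certainty. For its partner Gclc (chromosome 9, 77754535 to 77794485), the catalytic subunit, RQ at day 14 was 0.056, 0.037, 0.0346 and 0.0413 in WT cultures and 0.0462, 0.0395, 0.0425 and 0.0388 in Het cultures, so the groups overlapped. At day 21 it was 0.0401, 0.0379, 0.0392 and 0.0358 in WT cultures and 0.0461, 0.0412, 0.0443 and 0.0523 in Het cultures, without overlap. Over both days the log2 difference of Gclc was 0.13 ± 0.09 (adjusted p = 0.364). Gsr (chromosome 8, 33652523 to 33698163), the glutathione reductase, ranged from 0.0379 to 0.0478 in the 8 WT libraries of these days and from 0.0326 to 0.0517 in Het. Its lowest Het value was again replicate 1 of day 14, and 7 of the 8 pairs of equal day and replicate number had the higher value in Het (log2 difference 0.16 ± 0.07, adjusted p = 0.159).

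Of the thioredoxin and peroxiredoxin genes, Prdx1 had the shape of Gclm, and Txnrd1 and Srxn1 did not separate any Het library from all WT libraries at day 14. Prdx1 (chromosome 4, 116685544 to 116700822), the peroxidase, had RQ of 0.997, 0.743, 0.736 and 0.805 in WT cultures and 0.627, 1.14, 1.02 and 1.01 in Het cultures at day 14. At day 21 the values were 1.11, 0.945, 1.01 and 0.975 in WT cultures and 1.13, 1.16, 1.17 and 1.32 in Het cultures. Het lay above every WT library at day 21 and, at day 14, in replicates 2 to 4, whereas replicate 1 of Het was the lowest library of that day. The log2 difference was 0.23 ± 0.10 (adjusted p = 0.132). Txnrd1 (chromosome 10, 82833951 to 82897712), the thioredoxin reductase, separated the genotypes at day 21, at 0.145 to 0.148 in WT and 0.171 to 0.218 in Het. At day 14 it overlapped, at 0.151 to 0.216 in WT and 0.164 to 0.185 in Het, and the log2 difference over both days was 0.19 ± 0.08 (adjusted p = 0.129). Srxn1 (chromosome 2, 152105516 to 152111376), the sulfiredoxin, was 0.102 to 0.118 in WT and 0.128 to 0.135 in Het at day 21. At day 14 its ranges of 0.086 to 0.133 and 0.0993 to 0.121 overlapped, and its log2 difference was 0.17 ± 0.08 (adjusted p = 0.162).

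Hmox1 (chromosome 8, 75093621 to 75100589), the enzyme that opens the haem ring and frees iron, had RQ at day 14 of 0.335, 0.24, 0.238 and 0.267 in WT cultures and 0.284, 0.38, 0.3 and 0.303 in Het cultures. At day 21 it had 0.315, 0.323, 0.33 and 0.307 in WT cultures and 0.406, 0.378, 0.358 and 0.501 in Het cultures. Every Het library of day 21 exceeded every WT library, while at day 14 a single Het library did. Nqo1 (chromosome 8, 107388225 to 107403206, minus strand), the quinone reductase, went the other way. At day 14 RQ was 0.0839, 0.0422, 0.0446 and 0.0586 in WT cultures and 0.074, 0.0416, 0.0339 and 0.0383 in Het cultures. At day 21 it was 0.0639, 0.0467, 0.0495 and 0.0519 in WT cultures and 0.074, 0.0359, 0.0383 and 0.0421 in Het cultures. In both genotypes replicate 1 was the highest library, and among the other 3 numbers each Het library was below its WT counterpart at both days. Because the numbers were taken to pair the libraries, the edgeR fit with the replicate block is given beside the first one. Nqo1 was then lower in Het (log2 difference −0.26 ± 0.08, adjusted p = 0.0277). Hmox1 and Gclm stayed called as higher, and Sod2 did not (adjusted p = 0.0533), against 23.6% of all genes called with the block.

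Sod2 (chromosome 17, 13006846 to 13040063), the manganese superoxide dismutase, had the smallest spread of the 9 relative to its mean over the 24 libraries. At day 14 RQ was 0.0908, 0.0772, 0.0778 and 0.0827 in WT cultures and 0.0819, 0.0967, 0.0936 and 0.0841 in Het cultures. At day 21 it was 0.0877, 0.0898, 0.0873 and 0.0832 in WT cultures and 0.0998, 0.098, 0.093 and 0.0973 in Het cultures. The groups overlapped at day 14 and not at day 21.

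At day 21 alone, 7 of the 9 genes (Hmox1, Gclc, Gclm, Txnrd1, Srxn1, Prdx1 and Sod2) had every Het library above every WT library, and this held for 7.35% of the 19839 genes. Over days 14 and 21 together none of the 9 was without overlap, against 0.922% of the genes. In the edgeR fit of day 21 alone 8 of the 9 had an unadjusted p under 0.05, as did 3976 of 18682 genes. None of the 9 passed after adjustment over all genes, and 368 genes did. At day 14 alone none of the 9 had an unadjusted p under 0.05, against 3474 of 18368 genes, and 34 genes passed after adjustment. By the study's own rule for a changed marker, a ratio of mean RQ above 1.2 or below 0.8 with p under 0.05, here with a two-sided exact permutation test of 8 against 8 libraries, 2 of the 9 were changed: Hmox1 (ratio 1.24, p = 0.0244) and Gclm (ratio 1.29, p = 0.0334). The rule called 14.1% of the genes. The study describes fewer wells per genotype at these days than the 8 labelled libraries used here. Sod2 had an exact permutation p of 0.0149 at a ratio of 1.1, inside the limits.

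**Figure D2:**
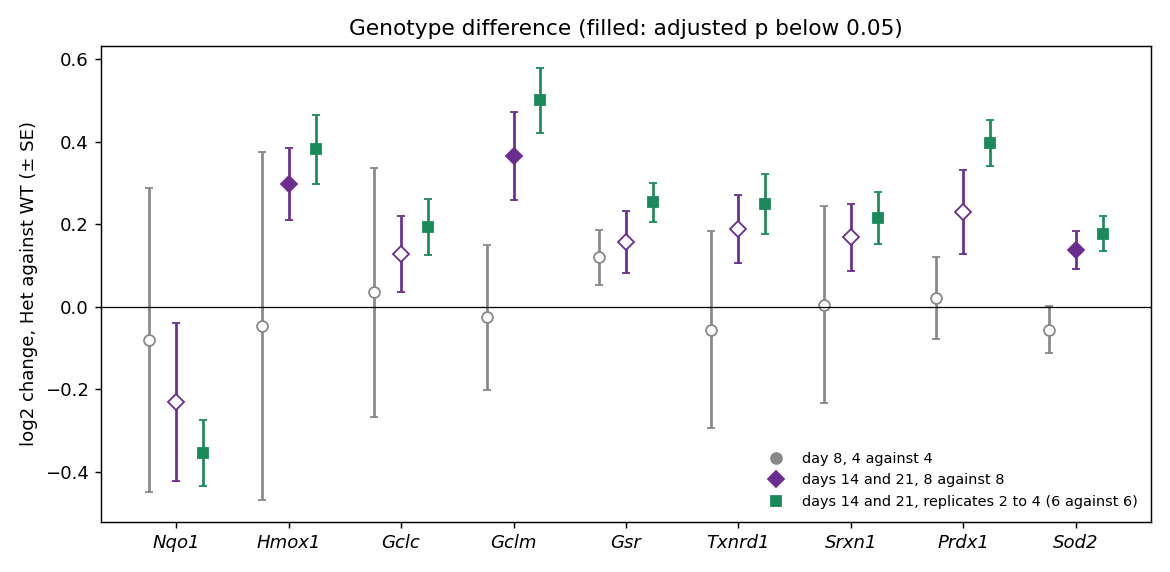
Log2 difference of Het against WT (vertical axis, ± SE) for each gene; grey circles are day 8, purple diamonds days 14 and 21 together, green squares days 14 and 21 without replicate 1, and filled symbols have an adjusted p below 0.05. The grey symbols lie near 0 with wide errors, 3 purple symbols are filled, and all 9 green symbols are filled, with Nqo1 alone below 0.

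The call depended on which libraries entered. With replicate 2, 3 or 4 left out, none of the 9 was called, where 328 of 20112, 258 of 20009 and 139 of 19788 genes were. The log2 difference of Gclm was 0.35, 0.32 and 0.28 in these edgeR fits (adjusted p = 0.191, 0.2 and 0.252). Without replicate 1, also with 6 libraries per genotype, all 9 genes were called, 8 higher and Nqo1 lower, against 39.4% of all genes in that fit. The log2 differences were then 0.50 ± 0.08 for Gclm, 0.40 ± 0.06 for Prdx1, 0.38 ± 0.08 for Hmox1, 0.25 ± 0.05 for Gsr and −0.35 ± 0.08 for Nqo1. Within replicate 1 alone, with 1 library per genotype and day and no test, the Het to WT ratio over both days was 0.955 for Gclm, 0.837 for Prdx1, 1.06 for Hmox1, 0.905 for Gsr and 1.00 for Nqo1, against 1.42, 1.31, 1.30, 1.19 and 0.784 in replicates 2 to 4. Leaving out a single library moved the number called as higher from 3 to between 0 and 6. Without replicate 1 of Het at day 14 it was 5, and without replicate 1 of WT at day 14 it was 6. It was 0 without any 1 of replicate 2 of WT or Het at day 14, replicate 3 of WT at day 14, replicates 2 and 4 of WT at day 21 and replicate 4 of Het at day 21, and 1 without replicate 4 of WT at day 14, replicate 3 of WT at day 21 or replicate 3 of Het at day 14. With TMM scaling in place of the housekeeping genes 7 were called higher (Gsr, Txnrd1, Srxn1 and Prdx1 in addition), against 19.9% of the genes. That scaling also turned the split of all calls from 1440 higher and 1762 lower to 2463 higher and 1485 lower.

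Markers of other cells also differed between the genotypes. Of the 9 macrophage and osteoclast markers, 6 were higher in Het at days 14 and 21 and none lower. Over all genes tested, 7.26% were higher and 8.88% lower. The 6 were Cd68, Csf1r, Adgre1, Lyz2, C1qa and Fcgr1, with log2 differences of 0.92 to 1.17. Mrc1 (0.59), Acp5 (−0.12) and Ctsk (−0.12) were not called, and none of the 9 was at 0 in any group. Their summed RQ was 2.25 to 5.07 in WT and 3.55 to 7.82 in Het at day 14, and 6.65 to 7.70 in WT and 8.47 to 17.6 in Het at day 21. In the pair numbered 1 at day 14, the marker sum in Het was 0.70 of that in WT and all 9 defence genes were below their WT value, at ratios of 0.629 to 0.902. In the other 3 pairs of that day the marker sum was 2.33 to 3.21-fold and 5 to 8 of the 9 genes had a ratio above 1. At day 21 the sum was 1.24 to 2.65-fold and 8 or 9 of the 9 were above 1. At day 8 the marker sum was lower, at 0.72 to 1.4 over both genotypes. In pairs 2 to 4 of day 8 it was 1.56 to 1.86-fold in Het. In these pairs 3, 5 and 7 of the 9 genes had a ratio above 1, with median ratios of 0.949, 1.02 and 1.02. Of the OB markers, 3 of 4 were lower in Het at days 14 and 21 and none higher. Of the chondrocyte markers 1 of 4 was lower (Sox9), and Acan, Col2a1 and Matn1 were not called. The median of their summed RQ at day 14 was 8.98 in WT (5.72 to 19.9) and 2.08 in Het (1.32 to 21.2). At day 21 it was 4.35 in WT (3.19 to 7.465) and 1.22 in Het (1.105 to 7.49), so the genotypes overlapped at both days. Of the 3 endothelial markers tested 1 was higher (Kdr, 0.99), and Pecam1 (−0.08) and Tek (−0.67) were not called. The part of these other cells in the differences of the defence genes was not tested. In these bulk libraries, a change in the number of cells of a type and a change in RNA per cell cannot be told apart.

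**Figure D3:**
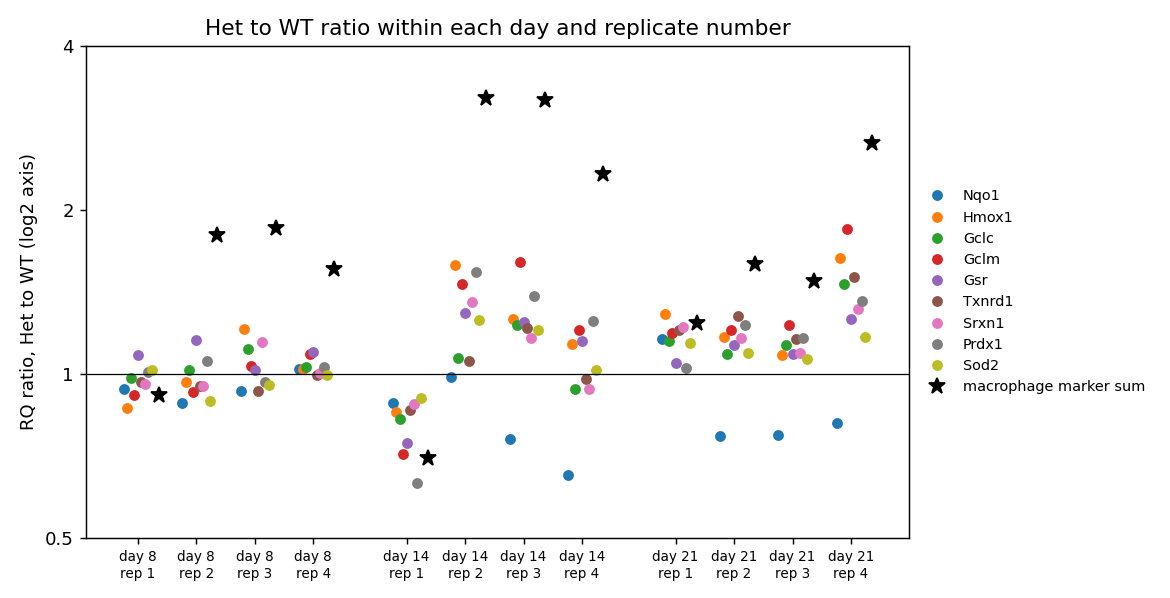
Ratio of RQ in Het to RQ in WT (vertical axis, log2 scale) within each day and replicate number (horizontal axis); coloured points are the 9 genes and black stars the summed macrophage and osteoclast markers. At day 14 in replicate 1 all points and the star lie below 1, and at day 21 all points but those of Nqo1 in replicates 2 to 4 lie above it.

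At day 8, when the genotypes were compared in 4 against 4 libraries, no gene of the 9 was called, none had an unadjusted p under 0.05 by edgeR or DESeq2 on the housekeeping scale, and 0% of 18222 genes were called by edgeR (1817 had an unadjusted p under 0.05, DESeq2 called 431, edgeR with the replicate block 285 and edgeR without replicate 1 3432, with none of the 9 among them). On the housekeeping scale the log2 differences lay between −0.08 (Nqo1) and 0.12 (Gsr), with 4 of 9 above 0. With TMM, DESeq2 size factors or total counts, Nqo1 alone was below 0 (−0.026, −0.019 and −0.010). The largest standard error on the housekeeping scale, 0.42, was that of Hmox1. Its RQ was 0.562 and 0.487 in the WT and Het libraries numbered 1 and 0.176 to 0.29 in the other 6, which is a ratio of 2.34. Nqo1 was 2.12 times and Gclc 1.89 times as high in replicate 1 as in the others at day 8, and Txnrd1, Srxn1 and Gclm 1.64, 1.63 and 1.42 times, whereas the median over all genes was 1.12. Sod2 (1.03) and Gsr (1.06) were the 2 that overlapped. For Nqo1 the excess was also present at days 14 and 21, at ratios of 1.83 and 1.57. Gsr had the lowest adjusted p of the 9 at day 8, with Het higher in 4 of 4 pairs and RQ of 0.0277 to 0.0313 in WT and 0.0311 to 0.0339 in Het (log2 difference 0.12 ± 0.07, adjusted p = 0.607). On the TMM, DESeq2 and total count scales its unadjusted p in edgeR was 0.0235, 0.0172 and 0.0101, and it was not called on any of them.

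The difference between the later genotype effect and that of day 8 was tested as an interaction over all 24 libraries. It was positive in 8 of the 9 and called in none, against 0.171% of 20434 genes (35, or 67 with the replicate block), and 1 of the 9 (Sod2, log2 0.19 ± 0.07, adjusted p = 0.645) had an unadjusted p under 0.05, by edgeR and by DESeq2. For Gclm it was 0.39 ± 0.21 (adjusted p = 0.971) and for Hmox1 0.34 ± 0.35. Without replicate 1, 2 of the 9 were called (Prdx1 and Sod2), against 4.72% of the genes in that fit. With days 8 and 21 only, a contrast chosen after seeing the data, none of the 9 was called without a block (0.1% of the genes), with the replicate block (0.356%) or with a block for each pair of equal day and number (0.911%). The genotype effect at day 21 minus that at day 14 was positive in all 9, from 0.04 to 0.35 (Txnrd1), and called in none, nor in any of 19839 genes by edgeR (0%; 473 had an unadjusted p under 0.05, and DESeq2 called 1). A single gene of the 9 had an unadjusted p under 0.05, by either tool. The genotype effects at the separate days were therefore not shown to differ.

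Time in culture moved the 9 genes apart from each other. From day 8 to days 14 and 21, over both genotypes, Nqo1 fell to 0.408 of its mean, Txnrd1 to 0.645 and Gclc to 0.733, while Gsr rose 1.39-fold, Prdx1 1.36-fold, Sod2 1.24-fold and Gclm 1.21-fold. In edgeR's test 4 were higher and 3 lower, against 58.3% of 20434 genes called, 40.9% higher and 17.4% lower. Nqo1 ranged from 0.0816 to 0.214 at day 8, with medians of 0.107 (WT) and 0.102 (Het), and from 0.0339 to 0.0839 later (log2 change −1.30 ± 0.20, adjusted p = 7.23e-06). Sod2 was the one member whose day 8 libraries (0.0668 to 0.075) did not overlap the later ones (0.0772 to 0.0998), which held for 13.7% of the genes (log2 change 0.30 ± 0.04, adjusted p = 4.58e-07). Txnrd1 fell by 0.64 ± 0.10 on the log2 scale (adjusted p = 1.94e-05) and Gclc by 0.45 ± 0.13 (adjusted p = 0.00599). Gsr rose by 0.47 ± 0.06 (adjusted p = 6.54e-07), Prdx1 by 0.43 ± 0.09 (adjusted p = 0.000188) and Gclm by 0.25 ± 0.10 (adjusted p = 0.0468). Hmox1 (0.12) and Srxn1 (−0.16) were not called. Among the genes that make or recycle glutathione, Gclc fell and Gsr rose, and the call of Gclm was lost without replicate 2, 3 or 4 (adjusted p = 0.243, 0.31 and 0.2).

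The size of these changes depended on the scale, since the median log2 change of all genes was 0.16 with the housekeeping genes, −0.02 with TMM and −0.14 with total counts, and the split of calls went from 8351 higher and 3560 lower to 5601 higher and 6692 lower with TMM. With TMM 3 of the 9 were higher (Gsr, Prdx1 and Sod2) and 4 lower (Srxn1 in addition, at −0.33 ± 0.08), and with total counts 1 was higher (Gsr) and 4 lower. Gclm had a log2 change of 0.08 with TMM and −0.05 with total counts, and Hmox1 −0.02 and −0.16, so neither has a direction that holds over these scales. The rise of Sod2 shrank from 0.30 to 0.12 with TMM and to 5.8e-05 with total counts (not called), and that of Prdx1 from 0.43 to 0.25 and 0.13 (not called with total counts). Without replicate 1 Hmox1 was called higher (0.52 ± 0.11, adjusted p = 0.000349). The falls of Nqo1, Txnrd1 and Gclc were called under each of the 3 other scales. All 4 OB markers, 8 of the 9 macrophage and osteoclast markers and all 5 markers of mature OBs and osteocytes rose over the same time, and 4 of 4 chondrocyte markers fell. The part of cell composition in the changes of the 9 genes was not tested.

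Between day 14 and day 21, 3 of the 9 were higher at day 21 and none lower, against 19.3% of 19839 genes called and 13.3% higher. They were Gclm (0.42 ± 0.11, adjusted p = 0.012), Prdx1 (0.32 ± 0.10, adjusted p = 0.0394) and Hmox1 (0.31 ± 0.09, adjusted p = 0.0211), all on the log2 scale. Nqo1, Gclc and Txnrd1 were not called, with log2 changes of −0.04, 0.0026 and −0.09. With TMM Prdx1 was no longer called (adjusted p = 0.0538), and the split of all calls went from 2646 higher and 1178 lower to 2259 and 2156. Without replicate 2, 3 or 4 none of the 9 was called, against 11.6%, 8.52% and 8.58% of the genes, and without replicate 1 there were 4, Srxn1 being the addition, against 28.9%.

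**Figure D4:**
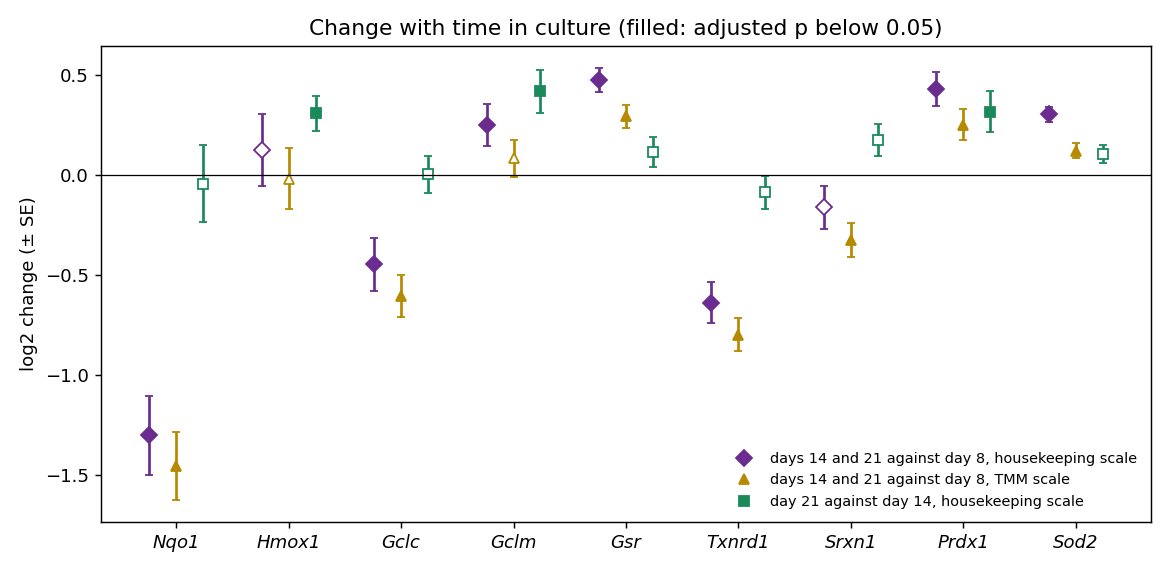
Log2 change (vertical axis, ± SE) of each gene; purple diamonds and yellow triangles are days 14 and 21 against day 8 on the housekeeping and TMM scales, green squares day 21 against day 14, and filled symbols have an adjusted p below 0.05. Nqo1, Txnrd1 and Gclc lie below 0 on both scales, and Gsr, Prdx1 and Sod2 above it.

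Across the 24 libraries the genes other than Hmox1 were put in a pair of sets, read from the same correlations that describe them. Pearson's r of log2 RQ is given without a test, since libraries of 1 day, 1 number and 1 pool share much. Nqo1, Gclc, Txnrd1 and Srxn1 correlated with each other at 0.57 to 0.928, and Gclm, Gsr, Prdx1 and Sod2 at 0.682 to 0.909. Between the sets r ran from −0.688 to 0.554. After the group means were removed, r was 0.767 to 0.972 in the first set, 0.516 to 0.892 in the second and 0.0442 to 0.722 between them. Over the 24 libraries Hmox1 had r of 0.104 to 0.817 with the first set and 0.501 to 0.813 with the second. Within groups its r was 0.721 to 0.933 with the first set and 0.339 to 0.774 with the second.

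Among 14890 genes with at least 50 counts on average, those most like each member over the 24 libraries were Rab3b and Itga3 for Nqo1 (r = 0.9854 and 0.9815), Etv6 and Senp1 for Txnrd1 (0.963 and 0.955), Plpbp and Prrg4 for Gclc (0.939 and 0.934), and Mapkapk3 and Pgd for Srxn1 (0.957 and 0.941). Gsr was followed by Ifi30 (0.958) and Atp6v1c1 (0.953), Prdx1 by Cstb (0.967) and Atp6v1c1 (0.964), Sod2 by Cybc1 (0.948), and Gclm by Rnf149 (0.933) and Inpp4b (0.932). For Hmox1 they were Esd (0.919) and Ecm1 (0.915). Ifi30 encodes a lysosomal thiol reductase, Atp6v1c1 a subunit of the proton pump that acidifies lysosomes and Cstb an inhibitor of lysosomal cathepsins, and Pgd encodes an enzyme of the NADPH-producing pentose phosphate pathway.

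Other genes of the pathway were taken as a list of 53, all of which were tested. At days 14 and 21, 10 were higher and 6 lower in Het, where 7.26% of all genes were higher and 8.88% lower, with a median log2 difference of 0.04 against −0.05 over all genes. The largest rises were those of Slc7a11, the cystine importer that feeds glutathione synthesis (1.54 ± 0.26, adjusted p = 0.00221), Chac1, which degrades glutathione (0.79 ± 0.10, adjusted p = 0.000343), and Fth1, the ferritin heavy chain that stores iron (0.38 ± 0.10, adjusted p = 0.0191). RQ of Chac1 at day 21 was 0.0459 to 0.0736 in WT and 0.106 to 0.118 in Het, without overlap. Slc7a11 was low, at 0.00132 to 0.00465 in WT and 0.00465 to 0.0135 in Het at day 21, and its groups overlapped. The largest falls were those of Slc40a1, the iron exporter (−0.47 ± 0.10, adjusted p = 0.00579), Gsta4, a glutathione transferase (−0.42 ± 0.11, adjusted p = 0.0196), and Gpx3, the secreted glutathione peroxidase (−0.37 ± 0.12, adjusted p = 0.0439). Nfe2l2 itself was higher in Het (0.29 ± 0.07, adjusted p = 0.0144), with RQ of 0.137 to 0.176 in WT and 0.167 to 0.212 in Het at day 14, and Keap1 was not called (−0.09 ± 0.04, adjusted p = 0.105). These pathway calls come from the fit in which 3202 genes were called. Without replicate 2, 3 or 4 that number was 328, 258 and 139.

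By group, the haem, iron and quinone genes had 5 of 12 higher and 1 lower in Het, the NRF2 regulators 2 of 7 higher, the glutathione genes 2 of 15 higher and 3 lower, and the NADPH genes 1 of 6 higher and 2 lower. None of the 10 thioredoxin and peroxiredoxin genes and none of the 3 superoxide and peroxide genes was called. At day 8, in the interaction with day 8 and in that between days 14 and 21, no gene of the 53 was called. Against day 8, 32 of the 53 were higher and 7 lower at days 14 and 21, where 40.9% of all genes were higher and 17.4% lower. The rises were led by Chac1 (2.86 ± 0.17), Slc7a11 (2.27 ± 0.30) and Sod3, the extracellular superoxide dismutase (1.5 ± 0.16), while Gss, the second enzyme of glutathione synthesis (−0.41 ± 0.09), G6pdx, the entry enzyme of the pentose phosphate pathway (−0.27 ± 0.09), and Txn1, thioredoxin (−0.24 ± 0.08), fell most. Keap1 rose by 0.32 on the log2 scale, and Nfe2l2 was not called (0.08; −0.09 with TMM and −0.21 with total counts). From day 14 to day 21, 19 were higher and 2 lower, where 13.3% of all genes were higher and 5.94% lower, led by Txnip, an inhibitor of thioredoxin (0.99 ± 0.22), Mgst1, a microsomal glutathione transferase (0.97 ± 0.33), and Fth1 (0.71 ± 0.10), with Txn2 (−0.22 ± 0.06) and Gpx7 (−0.21 ± 0.06) as the falls. Nfe2l2 (0.17) and Keap1 (−0.02) were not called between these days.

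**Figure D5:**
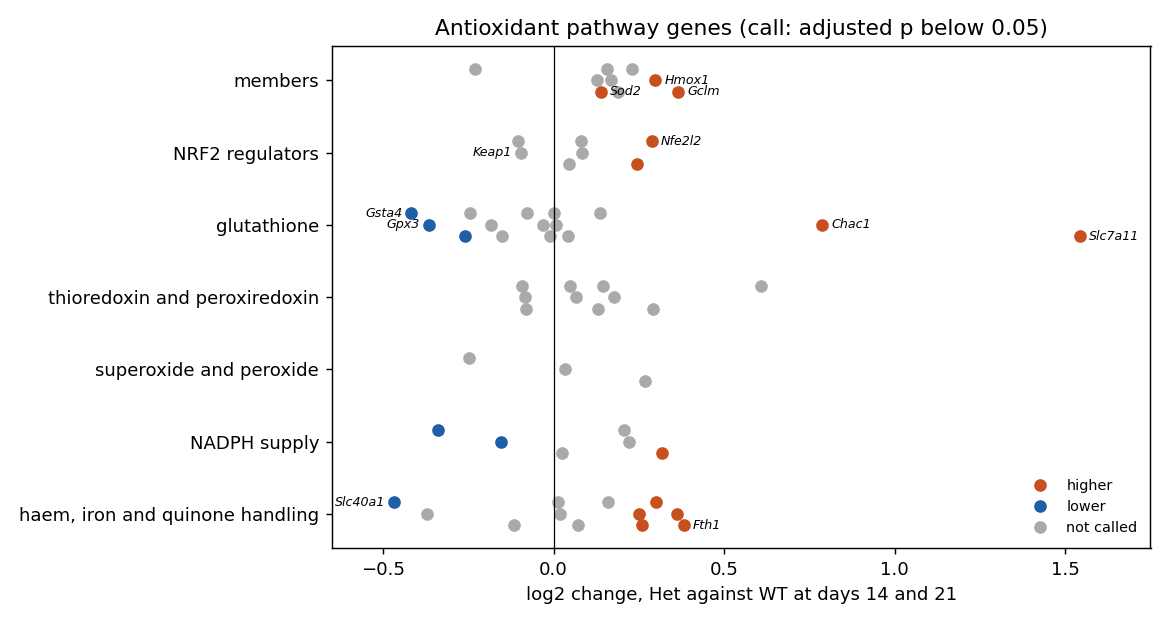
Log2 difference of Het against WT at days 14 and 21 (horizontal axis) for the 9 genes (members) and the 53 further genes by list (vertical axis); orange points were called higher, blue points lower and grey points not called. Slc7a11 and Chac1 lie farthest to the right, and the called points of the haem, iron and quinone list lie between 0.25 and 0.38 except Slc40a1.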

How the data were processed

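Polyadenylated RNA of 24 OB cultures was sequenced from TruSeq libraries. The authors deposited raw counts per gene, 1 library per file; per the labels and the submitters' processing notes, reads were trimmed with cutadapt 2.5, aligned with STAR to mm10 and counted with featureCounts 1.6.4 (Subread). The strand rule and the treatment of reads of several genes are not given in the sources used here. No molecular identifiers were used, so counting error is a lower limit. The other deposited column holds gene length. Gene coordinates, overlaps and lengths came from GENCODE M21 (GRCm38), which held the same identifier for 54587 of 55335 genes and all 9 members.

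The members and all gene and marker lists were chosen with earlier results of these data known. Counts were tested with edgeR 4.0.16 (R 4.3.3; glmQLFit, glmQLFTest, filterByExpr, Benjamini-Hochberg over all genes tested, threshold 0.05), with the housekeeping geometric mean as library scale. Het was compared with WT at days 14 and 21 (day as covariate) and at day 8, the days with each other, and genotype effects between days by interaction. For RQ ratios the test was an exact permutation, two-sided (12870 regroupings of 8 and 8), in place of the study's t-test. Alternatives were TMM, DESeq2 size factors, total counts, no filter, DESeq2 1.42.0 (Wald), the replicate block, single days and genotypes, and leaving out libraries; the interaction of days 8 and 21 only, with and without blocks, was chosen after seeing the data. In simulated counts with 200 genes changed by 1 on the log2 scale, 80% were recovered for Het against WT at days 14 and 21 and 52.5% at day 8. The members differed by less, −0.23 to 0.37 at days 14 and 21, so these shares do not give the recovery of such differences. Simulated libraries were also drawn independently, without a shift of replicate 1.

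Same-numbered WT and Het libraries of a day deviated together from their group means in all 12 pairs (r = 0.196 to 0.716, median 0.553, 14890 genes). The 36 pairs of unequal number had a median r of −0.12, and those with a library numbered 1 had −0.672 to −0.200. Among numbers 2 to 4, equal pairs had 0.196 to 0.628 and unequal pairs −0.040 to 0.579, so these ranges overlapped. The numbers were taken to pair the libraries, which is plain for number 1 and less so for the others. No replicate pair of the 36 within groups was alike within sampling noise (lowest chi-square per degree of freedom 5.14). P-values measure the spread between wells. Depth was 17140202 to 59734231 counts; the 9 members had at least 288 counts in every library. Named were the 9 members in every comparison, of the 53 pathway genes the up to 3 largest rises and falls with an adjusted p under 0.05 and at least 50 counts on average, Nfe2l2 and Keap1 always, and the 2 genes most like each member by r of log2 RQ, with a small constant added before the log; 1 of these genes is not reported here.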

Additional observations from a re-analysis of the deposited data

Results flagged for a closer look

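Of 54 groups of 4 libraries (9 genes in 6 groups), 3 held a library far from the other 3 for its gene, where chance alone gives about 1 in 20; all 3 were libraries numbered 1 and the highest of their group. Nqo1 had an RQ of 0.0740 in Het replicate 1 at day 21 against 0.0359 to 0.0422 in the other 3. Gsr had 0.0478 in WT replicate 1 at day 21 against 0.0404 to 0.0411, and Prdx1 had 0.836 in WT replicate 1 at day 8 against 0.675 to 0.700.

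The Het to WT ratio of Txnrd1 within pairs of equal number was below 1 in all 4 pairs at day 8, at 0.931 to 0.994, and above 1 in all 4 at day 21, where the lowest was 1.16. The interaction of days 8 and 21, chosen after seeing the data, gave a log2 difference of 0.42 ± 0.27 by edgeR without a block (adjusted p = 0.915), 0.42 ± 0.20 with the replicate block (adjusted p = 0.469) and 0.42 ± 0.09 with a block for each pair of equal day and number (unadjusted p = 0.0005, adjusted p = 0.0521). The ratio was higher at day 21 in 4 of 4 numbers, and no fit passed the threshold of 0.05 after adjustment.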

How the results depend on the processing

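For Het against WT at days 14 and 21, 3 of the 9 genes were called. With TMM, DESeq2 size factors or total counts 7 were, where 3948 of 19861, 4070 of 19861 and 4297 of 19845 genes were. At day 14 alone, at day 21 alone and without day as covariate 0 were, where 34 of 18368, 368 of 18682 and 1300 of 19839 genes were. With the replicate block 3 were called (Hmox1, Gclm and Nqo1, and not Sod2). Leaving out 1 replicate number gave 9 without replicate 1 and 0 without replicate 2, 3 or 4. Leaving out 1 library gave 0 to 6, where 2118 to 4869 of all genes were called. The block changed no other call of the 9. By the RQ rule 2 were called, against 1 with geometric means, 5 with total counts, 0 at day 14, 4 at day 21 and 0 to 4 without 1 replicate number. Over all genes the RQ rule was run in its first form only (14.1%). For the difference of the Het effect from day 8, leaving out gave 0 to 2. Against day 8, 7 were called, and 4 with day 14 alone, where 8977 of 19658 genes were. For day 21 against day 14 it was 3, against 1 in WT alone, 0 in Het alone and 0 to 4 without 1 replicate number. Of all genes, 2749 of 18633 were called in WT alone and 69 of 18437 in Het alone.

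Some log2 values turned sign, all but Gclm uncalled to begin with. For Het against WT at days 14 and 21, Gclc was −0.012 at day 14 alone (RQ ratio 0.989). At day 8, TMM turned Hmox1 from −0.046 to 0.013 and Gclm from −0.025 to 0.044. It also turned Txnrd1 from −0.055 to 0.0046 and Sod2 from −0.055 to 0.015, all of them uncalled. For the difference of the Het effect from day 8, Gsr went from 0.037 to −0.015 with TMM. For the later days against day 8, Hmox1 was −0.020 with TMM, −0.16 with total counts, −0.049 in WT alone and −0.031 at day 14, and −0.046 to 0.52 without 1 number. Gclm was −0.045 with total counts, and Srxn1 −0.26 to 0.0013 without 1 number. Nfe2l2 was −0.088 with TMM, −0.052 with DESeq2 size factors, −0.21 with total counts (called lower) and −0.064 in WT alone. For day 21 against day 14, Nqo1 was 0.022 in Het alone and −0.10 to 0.032 without 1 number, Txnrd1 was 0.087 in Het alone, and Gclc was −0.038 with TMM and with DESeq2 size factors, −0.042 with total counts, −0.13 in WT alone and −0.040 to 0.095 without 1 number. Of 646 values of the 9 genes, 499 kept direction and call, 89 lost the call, 38 gained it and 20 turned sign. They cover Het against WT at days 14 and 21 (log2 differences and RQ ratios) and the day comparisons. For the interaction with day 8 they cover Hmox1, Gclm, Sod2 and Txnrd1. Het against WT at day 8 and the interaction between days 14 and 21 were not counted. Of 436 values of Nfe2l2, Keap1 and the named pathway genes, 346 kept direction and call, 83 lost the call, 3 gained it and 4 turned sign. The causes were not tested.

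Depth did not leave any of the 9 at low counts, and day 8 rests on 4 libraries per genotype. Pooled pups, the unlabelled experiments and wells as replicates bound what the p-values cover.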
